A study of Mus musculus with 6 samples.

Results

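The genes described here code for the core of the canonical WNT signalling pathway inside the cell: the scaffold protein Dishevelled (Dvl1), the beta-catenin destruction complex (Axin1, Axin2, Apc, Gsk3b), beta-catenin itself (Ctnnb1) and the TCF/LEF transcription factors (Lef1, Tcf7, Tcf7l1, Tcf7l2). They were chosen by name as a list of 10 genes, with earlier results of these data known. A gene was taken when the deposited count table had a row under that symbol. Of the 10, 9 had a row and 8 had enough reads to be tested, out of 29493 genes in the table and 18067 tested. Axin2 is not analysed here. Tcf7 was left out of the test because of its low counts, and its counts are given below.

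RNA was sequenced from HT22, a neuronal cell line derived from mouse hippocampus. All 6 libraries came from 1 stably transfected line, labelled HT22-TR/TO-V5Klf13-1, in which a V5-tagged copy of the zinc-finger transcription factor KLF13 is held under the tet repressor. The Dox group (n = 3) received 1 µg/ml doxycycline, which releases the repressor, and the other group (n = 3) received vehicle, both for 8 hr. The series title gives the question as how KLF13 acts in hippocampal neurons. Cells without the transgene that received doxycycline are not analysed here, so an effect of KLF13 and an effect of the drug cannot be told apart. Whether the libraries of 1 group stem from different cultures is not in the labels; the p-values therefore cover the scatter among these 6 samples, and that scatter may be technical.

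In the absence of a WNT ligand, AXIN and APC hold beta-catenin so that casein kinase and GSK3 can phosphorylate it, after which it is ubiquitinated and degraded. A WNT ligand at the cell surface recruits Dishevelled and AXIN to the receptors, the complex stops working, and beta-catenin builds up and enters the nucleus. There it binds TCF/LEF proteins, which sit on DNA with corepressors of the TLE family in its absence, and turns them into activators. In the hippocampus the pathway is known for its part in the growth of the region and in adult neurogenesis, and LEF1 is needed for the dentate gyrus to form.

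Of the 8 tested genes, 6 had a promoter in the RefSeq table for GRCm38.p6, and the 250 bases before the start site were searched on both strands for 3 short sequences. KLF proteins, KLF13 among them, are known to bind CACCC and related GC-rich sequences. The letters CACCC, which read GGGTG on the other strand, occurred in the most upstream window of 5 of the 6 genes, against 52.0% of all 32851 windows of this length. The GC box GGGCGG, which reads CCGCCC on the other strand, also occurred in 5 of 6, against 32.7% of all windows. The core that TCF/LEF proteins bind, CTTTGA, which reads TCAAAG on the other strand, occurred in the most upstream window of 1 of 6, against 13.8% of all windows. The most upstream window of Lef1 held 0 of these, but a Lef1 window farther downstream, at chr3:131156044-131156293, held 2. The 6 windows held 62.0 to 74.8% G or C, against a median of 52.4% over all windows, and the CACCC and GGGCGG letters are themselves mostly G and C. These counts take only the most upstream window of each of the 6 genes, while the shares and the median cover all windows. Windows farther downstream, present for Lef1, Ctnnb1 and Tcf7l2, were left out of the counts, and some of them lack CACCC or the GC box. A match describes the letters and shows no binding. The windows of the TCF/LEF gene with the largest fall (Lef1), of the gene with the smallest p (Dvl1) and of the gene with the most GC boxes (Tcf7l2) are printed 5′ to 3′ on the + strand, with each CACCC and GGGCGG, in either orientation, in capitals. The matches can overlap each other, as in the long capital run of Tcf7l2. They lie at chr3:131110047-131110296, chr4:155847152-155847401 and chr19:55741560-55741809.
Lef1: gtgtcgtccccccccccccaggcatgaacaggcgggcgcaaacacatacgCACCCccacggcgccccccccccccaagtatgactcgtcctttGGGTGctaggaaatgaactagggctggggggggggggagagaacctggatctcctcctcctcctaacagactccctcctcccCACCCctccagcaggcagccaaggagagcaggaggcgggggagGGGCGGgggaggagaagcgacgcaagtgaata
Dvl1: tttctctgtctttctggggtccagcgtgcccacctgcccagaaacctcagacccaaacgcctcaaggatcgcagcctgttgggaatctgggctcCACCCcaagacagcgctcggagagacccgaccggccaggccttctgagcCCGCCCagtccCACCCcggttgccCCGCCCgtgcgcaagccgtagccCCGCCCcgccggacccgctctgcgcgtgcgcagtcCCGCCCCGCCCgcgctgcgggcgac
Tcf7l2: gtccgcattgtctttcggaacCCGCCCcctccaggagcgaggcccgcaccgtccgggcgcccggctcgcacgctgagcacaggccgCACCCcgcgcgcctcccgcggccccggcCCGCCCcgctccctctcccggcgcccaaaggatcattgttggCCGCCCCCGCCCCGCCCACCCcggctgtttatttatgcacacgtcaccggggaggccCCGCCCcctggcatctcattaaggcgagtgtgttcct
The Lef1 window held 3 CACCC and 1 GC box, the Dvl1 window 2 and 5, and the Tcf7l2 window 2 and 6. The Tcf7l1 window held 0 CACCC and 2 GC boxes. Whether these letters bear on the changes with Dox was not tested.

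The libraries held 38566798 to 52930384 counts. Klf13, counted without separating the cell's own gene from the transgene, was at 37.0, 36.1 and 39.1 CPM (counts scaled to the same total in every library, by effective library size) with vehicle and at 204.6, 187.7 and 183.6 CPM with Dox, a 5.13-fold rise (edgeR quasi-likelihood test, adjusted p = 1.5e-06). Mitochondrial transcripts took 3.67 to 3.86% of counts in all libraries, and transcripts of ribosomal proteins 4.33 to 4.72% with vehicle and 5.08 to 5.23% with Dox. The neuronal marker list had 5 of 10 genes with a row, Rbfox3, Dcx, Nefl, Nefm and Snap25 are not analysed here, and Map2 and Syp stood under 0.5 CPM. Its summed level was 66.3 to 67.1 CPM with vehicle and 19.0 to 19.4 CPM with Dox, mostly Tubb3, which fell from 60.8 to 14.7 CPM; 2 of the 4 tested fell and 1, Syt1, rose. Fibroblast markers, 7 of 8 with a row, summed to 9964 to 10490 CPM with vehicle and 8147 to 8525 CPM with Dox, mostly the collagens Col1a1, Col1a2 and Col3a1. Astrocyte markers, 5 of 6 with a row, summed to 37.3 to 40.1 CPM with vehicle and 44.1 to 47.3 CPM with Dox, all but a little of it Slc1a3, with Gfap, Aldh1l1, S100b and Slc1a2 each under 0.3 CPM. Oligodendrocyte markers, 3 of 5 with a row, summed to 1.66 to 2.25 against 1.03 to 1.17 CPM, and the 5 microglial markers to 35.2 to 37.3 against 26.4 to 28.1 CPM. Of the microglial markers Tmem119 fell from 30.4 to 19.9 CPM, Ptprc rose from 5.38 to 7.27 CPM, and Cx3cr1, P2ry12 and Aif1 were each under 0.3 CPM. What part these shifts have in the results was not tested. All libraries came from 1 cell line, so the sums describe marker genes and not a mixture of cell types. In bulk RNA, fewer cells with a transcript and less of it per cell cannot be told apart.

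All 8 tested genes of the pathway core fell with Dox and 0 rose, at an adjusted p under 0.05 over all genes. Over all genes 28.8% of genes tested fell and 25.9% rose, so a fall was common in this comparison. Every Dox library lay under every vehicle library for each of the 8, which held for 32.2% of all genes tested. The median log2 fold change was -0.65 over the 8 genes and 0.02 over all genes tested, and the median over all genes that fell was -0.60. Lef1 and Apc fell more than 2-fold, as did 26.1% of all genes that fell. Upper-quartile scaling moves the median of all genes from 0.02 to 0.11 and turns the split of 5203 lower against 4687 higher genes into 4457 lower against 6246 higher; under it 7 of the 8 fell and 0 rose, with Tcf7l2 missing the threshold.

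**Figure D1:**
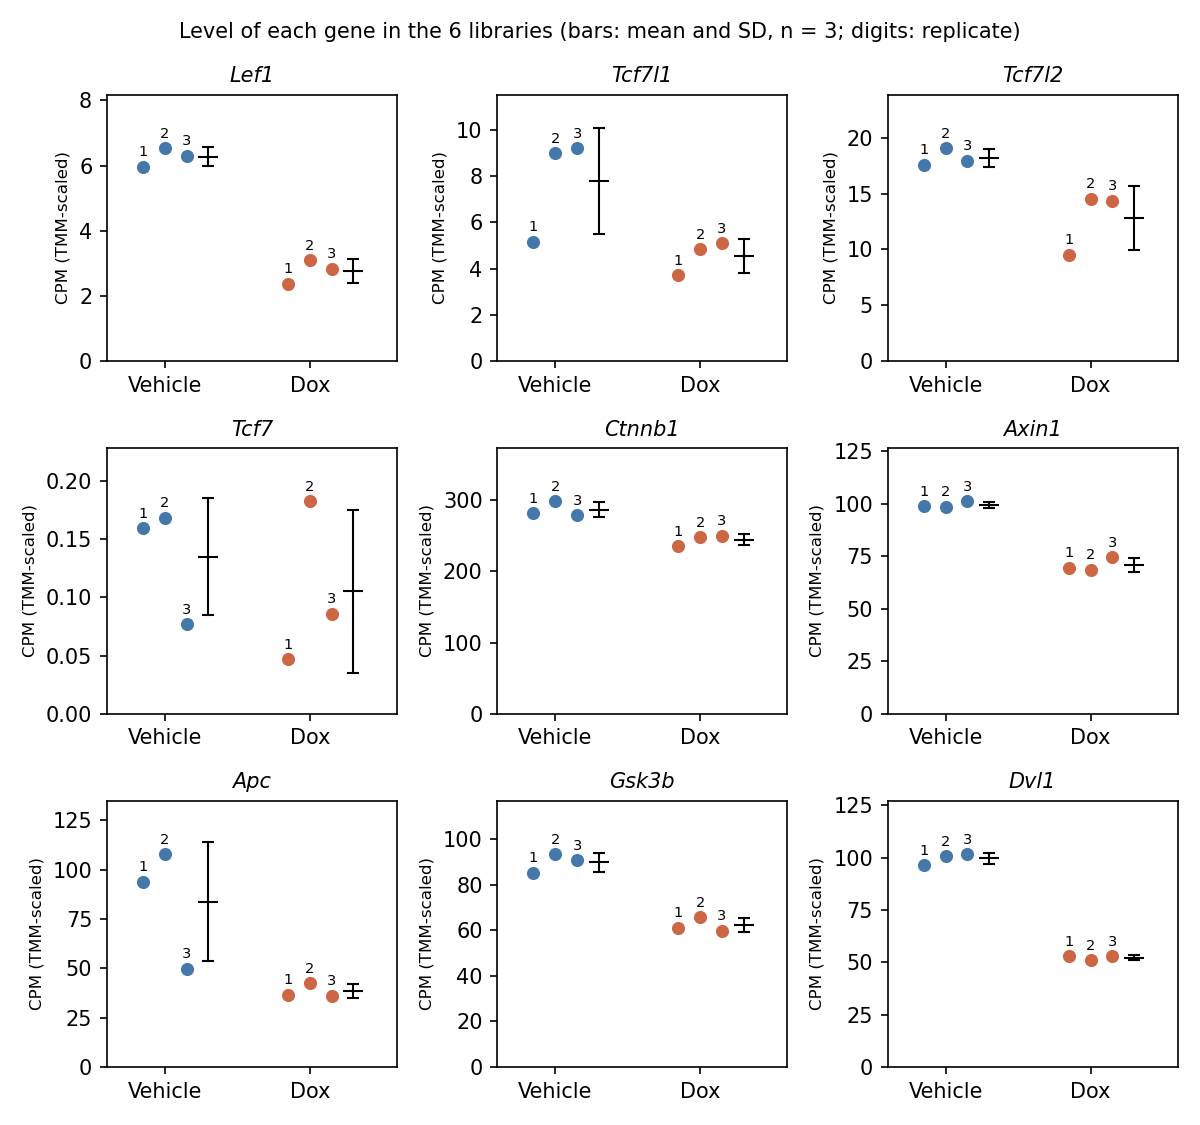
Level of each of the 9 genes with a row, 1 panel a gene, in every library (CPM, linear axis from 0, a scale of its own in each panel), vehicle in blue and Dox in orange; digits give the replicate and bars the mean and SD (n = 3). For all genes but Tcf7, which is at or below 0.182 CPM in every library, the 3 Dox points lie under the 3 vehicle points; the wide vehicle spread of Apc and Tcf7l1 and the low Dox 1 point of Tcf7l2 can be seen.

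Dvl1, the Dishevelled that relays the signal from the receptors to the destruction complex, had the smallest p of the set. It lies on the + strand of chromosome 4 (155847402 to 155859303, GRCm38). Its level was 96.5, 100.8 and 101.7 CPM with vehicle and 52.9, 51.1 and 52.9 CPM with Dox. The values within a group were close together and the groups were far apart. The fall was 1.91-fold (log2 fold change -0.93 ± 0.033 SE, edgeR adjusted p = 3.6e-06), and only 9.13% of genes tested had a lower log2 fold change. The other Dishevelled genes moved less. Dvl2 fell from 44.6 ± 0.775 to 34.1 ± 0.775 CPM (log2 fold change -0.39 ± 0.035; levels as mean ± SD, n = 3), and part of its exonic sequence overlaps Acadvl. Dvl3 was at 27.9 ± 1.15 and 26.3 ± 1.298 CPM (log2 fold change -0.09 ± 0.054, edgeR adjusted p = 0.23) and did not pass the test; under upper-quartile scaling its log2 fold change is 0.01. Dvl1 thus made up less of the Dishevelled reads: its counts over those of Dvl2 in the same library were 2.18, 2.22 and 2.31 with vehicle and 1.59, 1.47 and 1.55 with Dox. Over Dvl3 they were 3.60, 3.46 and 3.65 with vehicle and 2.03, 1.84 and 2.098 with Dox. Both ratios had groups that did not overlap, with log2 differences of -0.54 and -0.85, and an exact two-sided permutation test gave p = 0.1 for each, the least that 3 against 3 can give (0.117 adjusted over the 7 ratios compared). Dvl2 and Dvl3 were chosen for naming after their values were seen.

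The destruction complex genes Axin1, Gsk3b and Apc all fell. Axin1 (chromosome 17, 26138688 to 26195811, + strand), which codes for the scaffold that limits how much complex can form, was at 98.8, 98.6 and 101.3 CPM with vehicle and 69.7, 68.6 and 74.7 CPM with Dox. The 3 vehicle libraries were nearly level and all 3 Dox libraries lay below them. The fall was 1.40-fold (log2 fold change -0.49 ± 0.039, edgeR adjusted p = 8.2e-05). Gsk3b (chromosome 16, 38089001 to 38246084, + strand) codes for the kinase that marks beta-catenin for degradation. It was at 85.4, 93.5 and 90.9 CPM with vehicle and 61.1, 65.9 and 59.8 CPM with Dox. The groups were clearly apart, with a 1.44-fold fall (log2 fold change -0.53 ± 0.051, edgeR adjusted p = 1.9e-04). Gsk3a, the gene of the other GSK3 isoform, went from 91.2 ± 2.20 to 83.1 ± 2.81 CPM (log2 fold change -0.13 ± 0.035, edgeR adjusted p = 0.018). Its exons share 820 bases with 9130221H12Rik on the opposite strand. Gsk3a, named after its values were seen, passes the test as a rise with an offset for GC content (log2 fold change 0.11, adjusted p = 0.027) and misses the threshold under upper-quartile scaling (adjusted p = 0.40) and without Vehicle 1, Dox 2 or Dox 3 (adjusted p = 0.053, 0.066 and 0.065). Counts of Gsk3b over those of Gsk3a were 0.913, 1.05 and 1.00 with vehicle and 0.708, 0.814 and 0.729 with Dox. Dox libraries were the lower ones throughout (log2 difference -0.40, exact permutation p = 0.1, 0.117 adjusted).

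Apc (chromosome 18, 34220924 to 34322552, + strand) codes for the large scaffold that is lost in many colorectal tumours. Among the 8 tested genes it had the most uneven vehicle libraries, at 94.0, 107.9 and 49.8 CPM, against 36.6, 42.5 and 36.0 CPM with Dox. Vehicle 3 stood nearer to the Dox libraries than to the other vehicle libraries, but still above the highest of them. The fall was 2.18-fold (log2 fold change -1.13 ± 0.28, edgeR adjusted p = 0.013), the largest of the destruction complex members of the set and one of the least precise. Without Vehicle 3 the log2 fold change was -1.40 (adjusted p = 2.2e-04), and over all 6 ways of leaving out 1 library the adjusted p stayed at or under 0.048. A pseudogene copy, Apc-ps1, had 8 to 13 counts per library and did not pass the test. Apc2, the paralog known mainly from neurons, fell further, from 6.39 ± 0.191 to 1.68 ± 0.186 CPM (log2 fold change -1.93 ± 0.092, edgeR adjusted p = 9.5e-06). Its counts over those of Apc were 0.0694, 0.0572 and 0.130 with vehicle and 0.0405, 0.0400 and 0.0513 with Dox (log2 difference -0.88, exact permutation p = 0.1, 0.117 adjusted), the highest value being that of Vehicle 3, where Apc was low.

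Ctnnb1 (chromosome 9, 120929216 to 120960507, + strand), the gene of beta-catenin, which works both in WNT signalling and at cadherin junctions, had the highest level and the smallest change of the set. It was at 281.1, 298.3 and 279.0 CPM with vehicle and 235.3, 247.8 and 249.9 CPM with Dox. The groups did not overlap. The fall was 1.17-fold (log2 fold change -0.23 ± 0.037, edgeR adjusted p = 0.0022), which passes a test against 0 but not a test against a change of 1.2-fold (glmTreat, adjusted p = 0.86). As 32.5% of genes tested had a lower log2 fold change, the size of this fall was ordinary in this comparison. Its exons share 759 bases with Ulk4 on the opposite strand, which rose from 9.38 to 15.3 CPM, and the sources used here do not say whether the counting used strand.

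**Figure D2:**
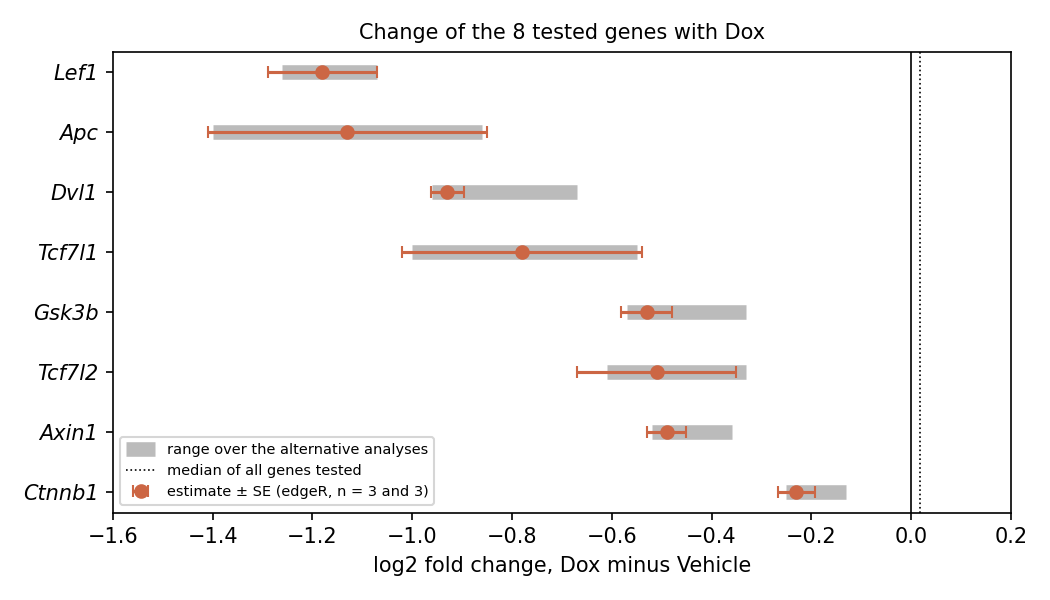
Log2 fold change, Dox minus vehicle, of the 8 tested genes with its standard error; grey bands span the values under the alternative analyses and the dotted line is the median of all genes tested. Every point lies below 0; Lef1 (-1.18), Apc (-1.13) and Dvl1 (-0.93) lie farthest from it and Ctnnb1 (-0.23) nearest, and the errors of Apc, Tcf7l1 and Tcf7l2 are the widest.

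Among the TCF/LEF factors, Lef1 (chromosome 3, 131110471 to 131224356, + strand) fell the most. LEF1 is the family member that most often acts as an activator with beta-catenin. Its level was 5.96, 6.53 and 6.31 CPM with vehicle and 2.37, 3.10 and 2.84 CPM with Dox. Dox 2, the highest of its group, was still well under Vehicle 1, the lowest of the vehicle group. The fall was 2.26-fold (log2 fold change -1.18 ± 0.11, edgeR adjusted p = 1.3e-04), and 5.88% of genes tested had a lower log2 fold change. Its exons share 1208 bases with the predicted gene Gm43352 on the opposite strand, which had 49 to 122 counts per library and a log2 fold change of -0.77 ± 0.24 (edgeR adjusted p = 0.033); without stated strand, reads there cannot be told apart.

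Tcf7l1 and Tcf7l2 passed the test narrowly. Tcf7l1 (chromosome 6, 72626378 to 72789254, - strand), known as the most repressive factor of the family, was at 5.17, 9.01 and 9.22 CPM with vehicle and 3.71, 4.84 and 5.09 CPM with Dox. Vehicle 1 lay close to the highest Dox library, and the other vehicle libraries stood well above. The log2 fold change was -0.78 ± 0.24 (1.72-fold, edgeR adjusted p = 0.033), and it missed the threshold when Vehicle 2, Vehicle 3, Dox 1, Dox 2 or Dox 3 was left out (adjusted p = 0.10, 0.10, 0.098, 0.068 and 0.057), while without Vehicle 1 it was -1.0 (adjusted p = 0.0026). Tcf7l2 (chromosome 19, 55741820 to 55933654, + strand), which codes for the TCF4 protein and has 22 annotated transcripts, was at 17.6, 19.1 and 18.0 CPM with vehicle and 9.54, 14.6 and 14.4 CPM with Dox. Here the vehicle libraries were close together and Dox 1 lay apart from the other Dox libraries. The log2 fold change was -0.51 ± 0.16 (1.42-fold, edgeR adjusted p = 0.036). It was -0.33 without Dox 1 (adjusted p = 0.0052) and missed the threshold without Vehicle 1, 2 or 3 (adjusted p = 0.070, 0.099 and 0.080). For Lef1, Tcf7l1 and Tcf7l2 alike, Dox 1 was the lowest of the 6 libraries. Tcf7 (chromosome 11, 52252371 to 52283014, - strand), known best from T cells, had 6, 7 and 4 counts with vehicle and 2, 9 and 4 with Dox, too few for a comparison at this depth.

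Levels of different genes were compared per kilobase of the longest annotated transcript. With vehicle the order was Ctnnb1 (79.0 CPM per kilobase), Dvl1 (29.7), Axin1 (26.4), Gsk3b (10.8), Apc (6.55), Tcf7l2 (4.90), Tcf7l1 (2.56), Lef1 (1.80) and Tcf7 (0.0545). Of these neighbours, Apc and Tcf7l2 overlapped in their libraries, as did Tcf7l1 and Lef1. With Dox, Axin1 (18.8) stood above Dvl1 (15.6), and the libraries of these genes did not overlap in either group. The other change of order, Tcf7l2 (3.45) above Apc (3.00), lay within the spread of the libraries. Beta-catenin mRNA thus stood well above that of every TCF/LEF gene in both groups. Much of this order depends on the length used. With the median transcript length instead, Gsk3b (51.4 CPM per kilobase with vehicle) stands above Axin1 (35.1) and Dvl1 (32.8), so Axin1 is above Dvl1 in both groups and the swap between them is absent. The mean of Tcf7l1 then stands above that of Tcf7l2 with vehicle (10.9 against 7.85) and with Dox (6.38 against 5.52), but their libraries overlap in both groups. In Vehicle 1 the order is the reverse, with 42.6% of the summed TCF/LEF level for Tcf7l1 and 44.6% for Tcf7l2. Ctnnb1 stays first, and Lef1 and Tcf7 last, with either length.

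The summed TCF/LEF level was 9.32 ± 0.973 CPM per kilobase with vehicle and 5.78 ± 1.12 with Dox (SD, n = 3 each). The share of Lef1 in this sum was lower in the Dox libraries, and the shares themselves were not tested. Lef1 took 20.9, 18.7 and 18.7% of the sum with vehicle and 15.2, 13.8 and 12.8% with Dox. Tcf7l2 took 52.9 ± 4.21% with vehicle and 59.4 ± 1.90% with Dox, and Tcf7l1 27.1 ± 5.65% and 26.0 ± 1.31%. The Lef1 share did not overlap between the groups, while the shares of Tcf7l2 and Tcf7l1 did. With the median transcript length Tcf7l1 and not Tcf7l2 takes the largest mean share, at 51.1 ± 7.44% with vehicle and 49.5 ± 1.74% with Dox, against 37.9 ± 5.83% and 42.5 ± 1.88% for Tcf7l2. The Lef1 share by that length was 10.7 ± 1.48% with vehicle and 7.64 ± 0.635% with Dox. Counts of Lef1 over those of Tcf7l2, which need no length, were 0.339, 0.342 and 0.351 with vehicle and 0.249, 0.213 and 0.198 with Dox, again without overlap (log2 difference -0.65, exact permutation p = 0.1, 0.117 adjusted). Lef1 over Tcf7l1 was 1.15, 0.725 and 0.684 with vehicle and 0.639, 0.640 and 0.557 with Dox (log2 difference -0.44, exact permutation p = 0.1, 0.117 adjusted), the groups being apart by a narrow gap. Tcf7l1 over Tcf7l2 overlapped between the groups (exact permutation p = 0.4).

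**Figure D3:**
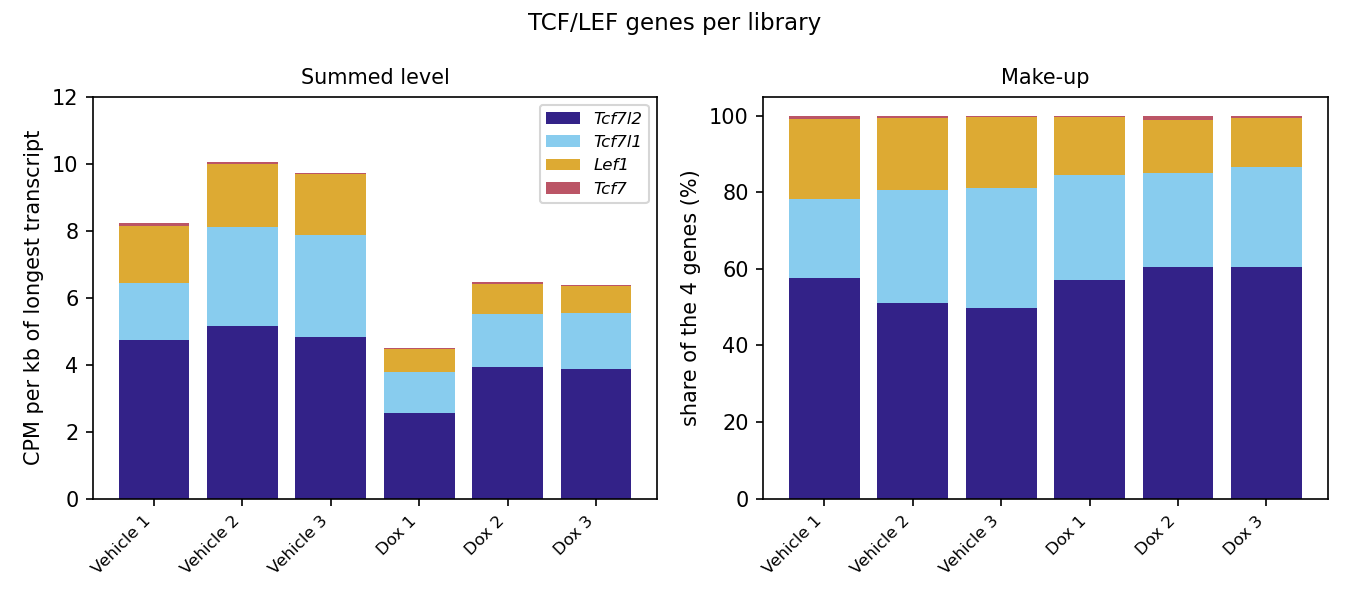
Stacked bars of the 4 TCF/LEF genes in each library: on the left the level (CPM per kilobase of longest transcript), on the right the share of each gene in the sum (%). The sums of the Dox libraries are all under those of the vehicle libraries. Lef1 takes 18.7 to 20.9% in the vehicle libraries and 12.8 to 15.2% in the Dox libraries, and Tcf7l2 is the largest share in all 6 at this transcript length.

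**Figure D4:**
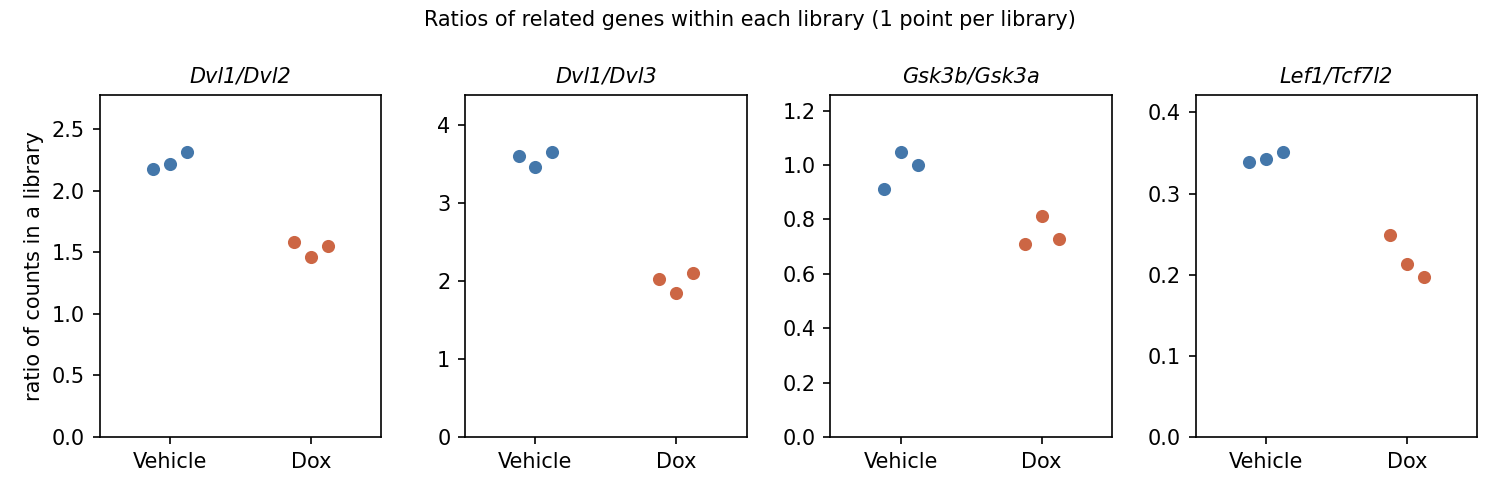
Counts of 1 gene over those of a related gene in each library (linear axes from 0, 1 point a library) for Dvl1/Dvl2, Dvl1/Dvl3, Gsk3b/Gsk3a and Lef1/Tcf7l2. In each panel the 3 Dox points lie under the 3 vehicle points, the nearest points of Gsk3b/Gsk3a being 0.814 (Dox) and 0.913 (vehicle).

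The same genes can be seen within longer lists of the pathway, which were also chosen with earlier results of these data known. Of 28 genes listed for the destruction complex and Dishevelled, 22 were tested: 14 fell, 5 rose and 3 did not pass (28.8% of all genes tested fell and 25.9% rose), with a median log2 fold change of -0.44, against 0.02 over all genes. Without Axin1, Apc, Gsk3b and Dvl1, 10 of 18 fell and 5 rose, and the median was -0.14. Upper-quartile scaling gives 12 lower and 7 higher over the 22. Btrc, one of the F-box proteins that ubiquitinate phosphorylated beta-catenin, fell from 21.6 ± 0.357 to 7.61 ± 0.476 CPM (log2 fold change -1.51 ± 0.059, edgeR adjusted p = 4.8e-06), and its paralog Fbxw11 from 89.5 to 53.9 CPM (-0.73 ± 0.035). Csnk1d, a casein kinase of the pathway, fell by 0.64 ± 0.033 on the log2 scale, and Usp34, a deubiquitinase that acts on AXIN, by 1.15 ± 0.070, its exons overlapping those of Ahsa2. Csnk1e, another casein kinase, fell by 0.76 ± 0.041. The casein kinase gene Csnk1a1 was at 218.2 ± 5.20 CPM with vehicle and 228.2 ± 7.15 CPM with Dox (0.065 ± 0.032, edgeR adjusted p = 0.14). It did not pass the test, but was called higher under upper-quartile scaling, the length offset and a filter at 5 CPM. Csnk1e and Csnk1a1 were named after their values were seen. Frat2, which codes for a GSK3-binding protein that frees beta-catenin, rose from 1.98 ± 0.230 to 4.30 ± 0.372 CPM (log2 fold change 1.11 ± 0.11, edgeR adjusted p = 2.2e-04). The genes of the enzymes that mark AXIN for degradation also rose, by small amounts: Tnks by 0.21 ± 0.048, Tnks2 by 0.16 ± 0.036 and Rnf146 by 0.27 ± 0.040 on the log2 scale. These were named after their values were seen, and none passed a test against a change of 1.2-fold (glmTreat).

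Of 23 nuclear partners of beta-catenin and TCF/LEF tested, 18 fell, 4 rose and 1 did not pass (median log2 fold change -0.39), beside 28.8% lower and 25.9% higher over all genes tested. Bcl9, the adaptor that joins beta-catenin to Pygopus, fell 5.41-fold, from 18.2 ± 0.752 to 3.37 ± 0.553 CPM (log2 fold change -2.43 ± 0.12, edgeR adjusted p = 1.2e-05). Its paralog Bcl9l, which had more counts, fell less, from 111.1 ± 16.1 to 72.9 ± 8.00 CPM (-0.61 ± 0.13). Ctbp2, a corepressor, fell 4.44-fold, from 45.8 ± 1.10 to 10.3 ± 0.296 CPM (-2.15 ± 0.043), and part of its exons overlap Fgfr2. Its paralog Ctbp1, which had more counts, fell less, from 135.2 ± 7.55 to 111.9 ± 7.59 CPM (-0.27 ± 0.062). The fall of Ctbp1 missed the threshold under upper-quartile scaling, by glmTreat and with the GC offset. Bcl9l and Ctbp1 were named after their values were seen. Cxxc5, an inhibitor that binds Dishevelled, fell by 1.47 ± 0.044 on the log2 scale, and Tbl1x, an exchange factor for corepressors, by 0.81 ± 0.031. Tle6 went from 1.88 to 0.296 CPM (-2.63 ± 0.42), low in both groups. The TLE corepressors moved in both directions: Tle1 and Tle4 rose by 0.44 ± 0.029 and 0.59 ± 0.055, and Tle2 and Tle3 fell by 1.21 ± 0.19 and 0.22 ± 0.041 on the log2 scale, these 4 being named after their values were seen. Aes, a further gene of this family, fell from 96.7 ± 10.4 to 63.1 ± 0.818 CPM (-0.62 ± 0.077, edgeR adjusted p = 6.5e-04). It too was named after its values were seen. The fall of Tle3 missed the threshold with offsets for length or GC content. Cby1, which codes for the beta-catenin antagonist Chibby, rose from 25.9 ± 0.948 to 46.5 ± 1.10 CPM (0.85 ± 0.042, edgeR adjusted p = 1.1e-05).

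Of 28 genes listed as targets of beta-catenin and TCF in other tissues, 14 were tested: 11 fell, 2 rose and 1 did not pass (median log2 fold change -0.41; 28.8% of all genes tested fell and 25.9% rose). Without Lef1, which is itself on the list, 10 of 13 fell and the median was -0.38. Tcf7, Nkd1, Rnf43, Lgr5, Ascl2 and Fgf9 had fewer than 10 counts in every library and were not tested. Apcdd1, a membrane inhibitor of WNT, fell from 157.0 to 115.8 CPM (-0.44 ± 0.029), and Znrf3, a ubiquitin ligase that removes WNT receptors, from 25.2 to 15.8 CPM (-0.67 ± 0.10). Jag1, a Notch ligand, fell by 0.60 ± 0.065 and Vegfa, an angiogenic growth factor, by 0.38 ± 0.031 on the log2 scale. Id2, an inhibitor of helix-loop-helix factors, rose from 57.6 ± 0.901 to 92.9 ± 1.24 CPM (0.69 ± 0.027), and Bambi, a decoy receptor of the TGF-beta family, from 7.77 ± 0.285 to 12.7 ± 0.378 CPM (0.71 ± 0.052). Most of these genes have other regulators too, and the list was compiled from general knowledge of the pathway.

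**Figure D5:**
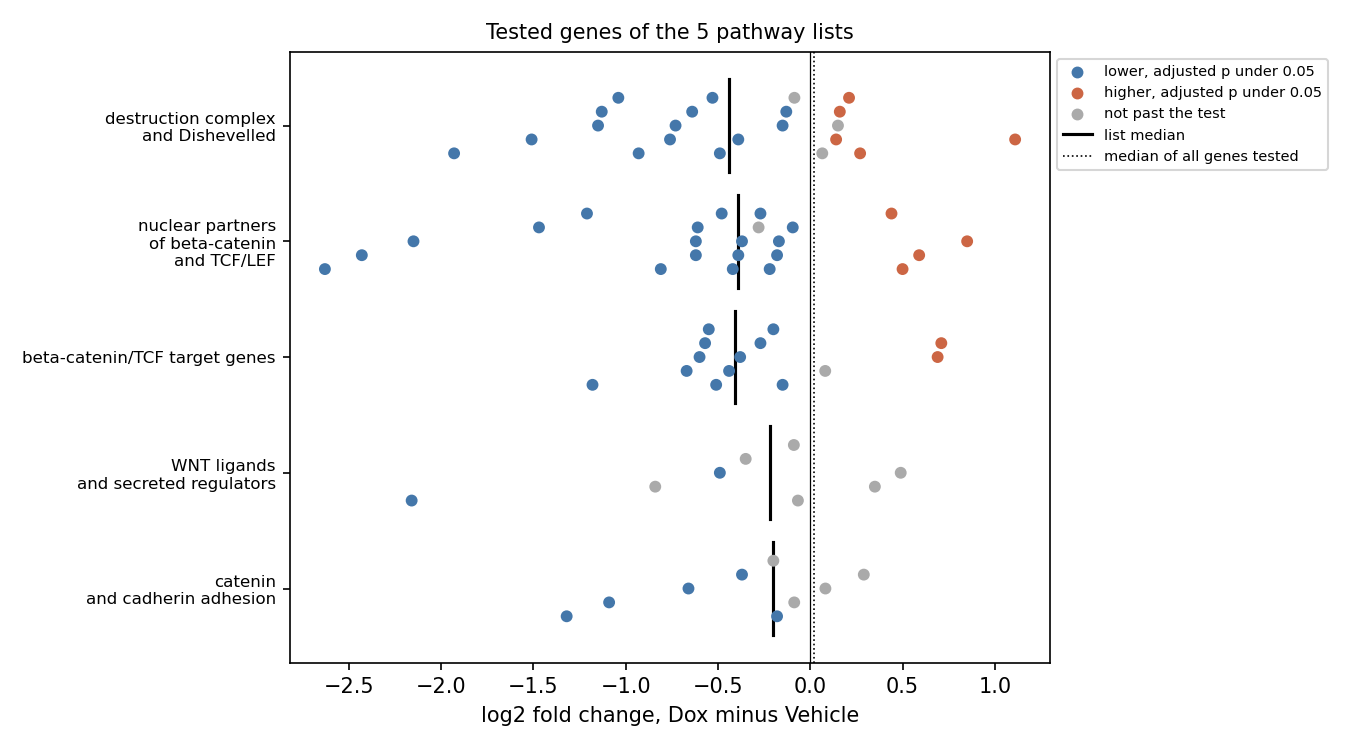
Log2 fold change, Dox minus vehicle, of every tested gene in the 5 pathway lists, 1 point a gene, with the list medians and the median of all genes tested (0.02). The list medians run from -0.44 (destruction complex and Dishevelled) to -0.20 (adhesion), and each list but WNT ligands and adhesion holds called genes on both sides of 0.

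Genes whose pattern over the 6 libraries was most like that of Lef1, by the Euclidean distance of log2 CPM less the vehicle mean among 10656 genes, were Nr3c1 (distance 0.103), Ahr (0.106), Nectin2 (0.141) and Dlg4 (0.146). Nr3c1 codes for the glucocorticoid receptor, Ahr for the aryl hydrocarbon receptor, Nectin2 for an adhesion protein and Dlg4 for the synaptic scaffold PSD-95. Their log2 fold changes lay between -1.19 and -1.11, and in each of the 4, as in Lef1, Dox 1 was the lowest library and Dox 2 the highest Dox library. The likeness was measured on the same libraries that chose it and is a description.

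The authors' deposited table gave log2 fold changes of the same sign for all 9 genes with a row: -1.12 for Lef1, -0.70 for Tcf7l1, -0.48 for Tcf7l2, -0.23 for Ctnnb1, -0.49 for Axin1, -0.95 for Apc, -0.53 for Gsk3b, -0.93 for Dvl1 and -0.12 for Tcf7. The authors' deposited table marks the first 8 of these as changed and Tcf7 as not. It rests on the same counts and is no separate measurement.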

How the data were processed

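The authors deposited whole-number counts per gene symbol for 6 libraries, not normalized. A second deposited table compares Dox with vehicle and gives, per the file headers, the mean normalized signal of a gene, its log2 fold change and error, a statistic (score), and its raw and adjusted p-value. The submitters' processing notes list FastQC 0.11.3, HISAT2 2.1.0, StringTie 1.3.3, DESeq2 and GRCm38, with no role or order. The sources used here do not give the annotation, the strand setting or the treatment of multi-matching reads, so counts of overlapping genes and near copies are uncertain.

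Columns were assigned by the samples' descriptions in the labels. Low genes were removed with filterByExpr (18067 of 29493 left) and libraries were scaled by TMM (factors 0.97 to 1.03). The quasi-likelihood test of edgeR 4.0.16 (limma 3.58.1, R 4.3.3) compared the groups, without covariates, with Benjamini-Hochberg adjustment over all genes tested and a threshold of 0.05. The biological coefficient of variation (common estimate) was 12%. A standard error is the fold change (log2) divided by the root of F. The fit was tested on simulated data. Within-library count ratios were compared by exact two-sided permutation. Symbols were matched to GENCODE M21 on GRCm38 (27367 to 1 gene), which gave coordinates, lengths and exonic overlaps of at least 50 bases, and promoters came from RefSeq.

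The genes and lists were chosen with earlier results of these data known. From each list the text names, by rule, the 4 genes with the smallest p past the test and the 2 with the largest change; others are marked in the text. Like patterns were sought among tested genes with a mean of at least 2 CPM, leaving out predicted and clone-based symbols. No 2 replicates were near-identical (chi-square per degree of freedom 11.1 to 13.8 between replicates). Deviations of same-numbered libraries from their group means correlated at 0.069, 0.052 and -0.094 across 14635 genes, and the numbers were treated as names only. The other ways of analysis were scaling by DESeq2's size factors or by upper quartile; the tests of DESeq2 1.42.0 and limma-voom; keeping all genes, or only those of 5 CPM or more; adding the replicate as a block; an adjusted p under 0.01; glmTreat against a 1.2-fold change; offsets for transcript length and GC content; and leaving out each library.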

Additional observations from a re-analysis of the deposited data

How the results depend on the processing

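None of the 8 tested genes of the pathway core changed direction under any of the 17 alternatives (16 for Lef1, which is under a filter at 5 CPM). The adjusted p under 0.01 and glmTreat keep the fold changes of the main fit, so under them direction could not change. Lef1, Axin1, Gsk3b and Dvl1 passed the test under all that were run, with log2 fold changes of -1.26 to -1.07, -0.52 to -0.36, -0.57 to -0.33 and -0.96 to -0.67. Ctnnb1 (-0.25 to -0.13) missed it against a 1.2-fold change only, and Apc (-1.40 to -0.86) at an adjusted p under 0.01 only. Tcf7l1 (-1.0 to -0.55) missed it under 9 and Tcf7l2 (-0.61 to -0.33) under 8, among them no filter on low counts (adjusted p = 0.056 and 0.059), the GC offset for Tcf7l1 (-0.55, adjusted p = 0.11) and the length offset for Tcf7l2 (-0.44, adjusted p = 0.054). The count of 8 that fell became 5 at an adjusted p under 0.01, 5 by glmTreat and 6 with no filter, and 6 to 7 when 1 library was left out. By glmTreat 2417 genes were higher in place of 4687, and 7 of the 5 lists' genes in place of 11. Ephb2 turned to 0.0895 with the length offset (adjusted p = 0.19, no call), and Gsk3a to 0.11 with the GC offset (adjusted p = 0.027, a called rise in place of a called fall); the cause was not tested. With the replicate block, 8 of the 8 genes fell, and 5097 genes were lower and 4602 higher over the table. Depth limits Tcf7 and the other genes under 10 counts.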

Other observations

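Beta-catenin is also a part of cadherin junctions, and of 9 tested genes of that group 5 fell, 0 rose and 4 did not pass (median log2 fold change -0.20; 28.8% of all genes tested fell and 25.9% rose). Upper-quartile scaling and the length offset each give 5 lower and 2 higher. Ctnnd1 alone rose with the replicate block and without Vehicle 2, and Cdh5 alone without Dox 3. The count that fell was 6 without Dox 2, and 4 by glmTreat or with a filter at 5 CPM. Cdh2, the neuronal cadherin, fell from 92.4 ± 1.01 to 43.3 ± 1.304 CPM (log2 fold change -1.09 ± 0.032 by edgeR; levels as mean ± SD, n = 3), and Ctnna1, the alpha-catenin that ties beta-catenin to actin, from 407.1 ± 6.24 to 257.5 ± 0.655 CPM (-0.66 ± 0.020). Both fell by more than Ctnnb1 in log2 fold change, a difference that was not itself tested. Cdh1, the epithelial cadherin, was low throughout and fell from 2.33 ± 0.416 to 0.931 ± 0.134 CPM (-1.32 ± 0.18). Vcl, which codes for the junction protein vinculin, fell by 0.37 ± 0.055 on the log2 scale, its exons overlapping those of Ap3m1, and Ctnnal1, an alpha-catenin relative, by 0.18 ± 0.031.

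Of 36 WNT ligands and secreted regulators listed, 8 were tested, 2 fell, 0 rose and 6 did not pass (median log2 fold change -0.22), a share of falls near the 28.8% over all genes tested. Without Dox 2 the count that fell was 4, with Wnt1 and Wnt5a added. Upper-quartile scaling gives 2 lower and 1 higher. That gene, Porcn, also rose with the replicate block, with the GC offset and without Vehicle 3. With a filter at 5 CPM the count that fell was 1. Wnt9a fell 4.46-fold, from 4.54 ± 0.330 to 1.02 ± 0.165 CPM (-2.16 ± 0.13 by edgeR), and Wls, which carries WNT proteins to the cell surface, from 272.7 ± 8.66 to 194.5 ± 6.07 CPM (-0.49 ± 0.035). Wnt5a, the ligand with the highest counts, was at 30.4 ± 1.41 CPM with vehicle and 28.6 ± 7.16 CPM with Dox and did not pass the test (edgeR adjusted p = 0.69). Without Dox 2 its log2 fold change was -0.31 (adjusted p = 0.012). Wnt5a was named after its values were seen.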
